A study of Homo sapiens with 12 samples.

Results

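KRT8, KRT18, KRT7, KRT19, KRT80, SFN, VIM, NES and LMNA, that is 5 keratins, the epithelial adaptor stratifin, vimentin, nestin and lamin A/C, were followed in a melanoma line and its drug-resistant derivative. These 9 genes, of 33694 human gene identifiers listed, were chosen by symbol from the deposited counts because KRT18 and KRT8 separated the lines, so every difference between the lines given below for them is a description without a test. A375 is a human melanoma line that carries an activating BRAF mutation, and A375-BIR is its derivative resistant to BRAF inhibitors. Each line was grown in medium with 10% serum and was treated for 48 h with 200 nM dabrafenib, which inhibits the BRAF kinase, or with 0.1% DMSO as vehicle, and each of the 4 groups was deposited as 3 libraries. RNA was read with QuantSeq, a 3′ tag method that counts fragments near the end of each transcript, so values are given as CPM, each count as a rate of the scaled library total, not corrected for transcript length. Whether A375-BIR is 1 clone or a pool is not given in the sources used here.

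Of the 12 libraries, 10 listed human genes and were used. A375 in DMSO replicates 2 and 3 listed mouse genes, so this group was left with 1 library. Its deposited name also carried a different number stamp from the other libraries used. What the stamp records is not given in the sources used here, so every comparison with this library mixes drug or line with whatever it marks. Gene counts ran from 198690 to 1999840 per library, the latter in A375 DMSO. Mitochondrial transcripts took 10.7 to 15.1% of gene counts in A375 and 4.63 to 7.21% in A375-BIR, and their part in the differences between lines was not tested. Melanocytic markers summed to 1442 CPM in A375 DMSO, to 2843 to 3374 CPM in A375 dabrafenib and lay between 196 and 313 CPM in the resistant line. The higher sum in A375 dabrafenib came from DCT (417 CPM in DMSO, mean 1746 CPM in dabrafenib) and SOX10 (471 and 962 CPM). S100B was lower there (92.9 CPM in DMSO, 28.2 to 41.2 CPM in dabrafenib), as was MITF, and PMEL and TYR overlapped. MLANA, a pigment-cell antigen, had 1 count over the 10 libraries. MITF, the lineage transcription factor, was counted in every library, at 411 CPM in A375 DMSO, 208.7 to 315.5 CPM in A375 dabrafenib and 154 to 212 CPM in A375-BIR. Simple epithelial markers stayed at 1.69 to 22.6 CPM in sum over 11 genes, with 7 of the 11 at 0 in each group, EPCAM and GRHL2 among those without any count. Fibroblast markers summed to 8.46 to 30.9 CPM over 6 genes, leukocyte markers to at most 2.54 CPM and endothelial markers to at most 1.01 CPM.

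Intermediate filaments are built from proteins of several classes. Keratins form obligate pairs of an acidic type I chain, such as KRT18 or KRT19, with a basic type II chain, such as KRT8, KRT7 or KRT80, and KRT8 with KRT18 is the pair of simple epithelia. Vimentin fills the cytoplasm of mesenchymal and melanoma cells, nestin joins it in neural, neural crest and progenitor cells, and lamins line the inside of the nuclear envelope. Stratifin, encoded by SFN, is no filament protein but the epithelial member of the 14-3-3 adaptors.

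Of the 9 genes, 4 had 1 promoter window in the RefSeq table (GRCh38.p14), LMNA had several, and KRT18, KRT7, KRT19 and KRT80 were not matched. SFN and NES are shown because they are opposite in the lines: SFN had counts only in A375-BIR and NES was close to 0 there. The NES sequence is the 250 bases before its RefSeq start, chr1:156677408-156677657 on the minus strand, and the SFN sequence is the 239 bases before its GENCODE start, chr1:26862899-26863137 on the plus strand. Capitals mark motif matches on either strand.
NES: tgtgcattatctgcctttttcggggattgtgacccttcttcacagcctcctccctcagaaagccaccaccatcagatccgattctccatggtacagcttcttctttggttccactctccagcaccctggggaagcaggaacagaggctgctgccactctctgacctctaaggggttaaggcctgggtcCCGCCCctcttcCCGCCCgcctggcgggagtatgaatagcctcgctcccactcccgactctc
SFN: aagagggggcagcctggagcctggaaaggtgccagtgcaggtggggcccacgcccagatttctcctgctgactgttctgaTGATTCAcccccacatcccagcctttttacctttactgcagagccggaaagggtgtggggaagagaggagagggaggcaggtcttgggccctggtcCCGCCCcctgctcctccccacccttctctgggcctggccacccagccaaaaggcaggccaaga
The NES window held 2 GC boxes (GGGCGG), 62 and 50 bases before the start. The SFN window held 1 AP-1 motif (TGANTCA), 159 bases before the start, and 1 GC box at 63 bases. AP-1 is the binding motif of FOS and JUN proteins. Windows of 250 bases before 35116 RefSeq starts held the GC box in 42.6% and windows of 239 bases held AP-1 in 6.42% and the GC box in 41.2%. Neither window held the E-box CACGTG, the SOX motif ACAAAG or TATAAA.

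The simple epithelial pair separated the groups in this order. KRT18, the type I chain on chr12:52948871-52952901 (plus strand), was counted 86 times in A375 DMSO, at 54.0 CPM. It had 0 counts in each of the 3 A375 dabrafenib libraries, which over the group allows a level of up to 2.70 CPM. In A375-BIR it stood at 217, 212 and 198 CPM in DMSO and at 256, 159 and 158 CPM in dabrafenib. Every A375-BIR library was above every A375 library, and the 2 A375-BIR groups overlapped, with dabrafenib replicate 1 the highest library. The mean in DMSO was 3.87-fold higher in A375-BIR than in A375, and in dabrafenib it was at least 77.6-fold higher, taking 3 counts over the A375 group as the floor. In bulk RNA, fewer cells with the transcript and less of it per cell cannot be told apart.

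KRT18 counts in A375 were 86 in DMSO and 0 in dabrafenib, at least 19.99-fold lower (3 dabrafenib libraries against 1). The A375 dabrafenib values also entered the line contrast that chose the members, so no test is given for this fall. The single control library and its other stamp stand behind it. In A375-BIR, KRT18 gave a log2 change of -0.09 ± 0.18 (SE; edgeR adjusted p = 0.981, 3 against 3 libraries), with an approximate 95% interval of -0.44 to 0.26. The difference between the 2 responses is also the difference between the line contrasts that chose the members, so for them it is given as a value without a test.

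KRT8, the type II partner, runs on the minus strand at chr12:52897187-52949954 and its annotated span overlaps that of KRT18 by 1084 bases. The 3′ end of KRT18, where tags fall, lies 2947 bases outside the KRT8 span. KRT8 stood at 44.6 CPM in A375 DMSO and at 10.3, 22.3 and 11.3 CPM (5, 10 and 2 counts) in A375 dabrafenib. It stood at 95.7, 107 and 79.6 CPM in A375-BIR DMSO and at 51.4, 61.2 and 49.2 CPM in A375-BIR dabrafenib. No 2 groups overlapped, and the order was A375-BIR DMSO, A375-BIR dabrafenib, A375 DMSO and A375 dabrafenib. The mean in A375-BIR was 2.11-fold that of A375 in DMSO and 3.69-fold in dabrafenib.

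KRT8 fell with dabrafenib in both lines. In A375-BIR the log2 change was -0.82 ± 0.21 (SE; edgeR adjusted p = 0.0271, 3 against 3), where 1.1% of all genes were called lower. That call was lost in 5 alternatives: with DESeq2 (adjusted p = 0.247), with only the groups compared, and without A375-BIR DMSO replicate 1, A375-BIR DMSO replicate 2 or A375-BIR dabrafenib replicate 1, with log2 changes of -0.81 to -0.72. In A375 the log2 change was -1.53 ± 0.40 (SE, 3 against 1), given without a test as for KRT18. The difference between the responses was 0.72 ± 0.46 (SE) on the log2 scale, with an approximate 95% interval of -0.19 to 1.62.

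KRT8 and KRT18 proteins pair 1 to 1, and their tag counts are compared here within a library, where no scaling enters. KRT8 counts per KRT18 count were 0.826 in A375 DMSO. They were 0.441, 0.505 and 0.402 in A375-BIR DMSO and 0.201, 0.385 and 0.312 in A375-BIR dabrafenib, each dabrafenib value below each DMSO value. No test was made of the ratio. Tag counts of 2 genes also differ in how well each 3′ end is captured, and may differ in reads lost to processed copies. The ratio therefore says nothing of protein stoichiometry.

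KRT7 and KRT19, the other simple keratins, were near or at 0. KRT19, a type I chain on chromosome 17, had 0 counts in all 10 libraries. Over the groups, 0 counts allow up to 1.88 CPM in A375 DMSO, 2.70 CPM in A375 dabrafenib, 1.09 CPM in A375-BIR DMSO and 1.49 CPM in A375-BIR dabrafenib. KRT7, a type II chain, had 1 count in A375 DMSO, 0 in A375 dabrafenib, 6, 3 and 1 in A375-BIR DMSO and 7, 3 and 2 in A375-BIR dabrafenib. It read above A375 in every A375-BIR library, at 1.69 to 6.66 CPM, and was too low to be tested, as was KRT19. In the single A375 dabrafenib libraries 0 counts allow up to 6.08, 6.47 and 15.1 CPM of unscaled totals, so that order is not resolved per library. Its DMSO ratio between lines was 5.76 with a counting interval of 0.82 to 250.1, and in dabrafenib it was at least 2.21-fold higher in A375-BIR. KRT7 overlaps KRT86 and an antisense gene, and whether the counting used strand is not given in the sources used here.

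KRT80, a type II keratin of many epithelia, was the tested member called higher with the drug in A375-BIR. It had 0 counts in all 4 A375 libraries. In A375-BIR it stood at 35.6, 31.3 and 22.01 CPM in DMSO and at 94.2, 66.5 and 119 CPM in dabrafenib. The groups did not overlap, the lowest dabrafenib library being above the highest DMSO library. The log2 change was 1.57 ± 0.24 (SE; edgeR adjusted p = 8.15e-05, 3 against 3), a 2.97-fold rise, where 1.36% of genes were called higher. Its call held in 17 of 17 alternatives, with log2 changes of 1.43 to 1.74. Against A375 it was at least 16.5-fold higher in DMSO and at least 33.7-fold higher in dabrafenib.

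Among the 7 genes tested, KRT80 was thus called higher and KRT8 lower in A375-BIR, while KRT18, SFN, VIM, NES and LMNA did not pass. In that line KRT8 and KRT80, both type II, therefore moved in opposite directions, though the KRT8 call held in only 12 of 17 alternatives. A difference between the lines in the KRT80 response could not be estimated, since both A375 groups were at 0.

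SFN, the 14-3-3 sigma adaptor, which halts the cell cycle after DNA damage, was likewise counted in A375-BIR and not in A375. It had 0 counts in all 4 A375 libraries. In A375-BIR it stood at 16.95, 12.1 and 15.2 CPM in DMSO and at 18.1, 15.7 and 15.5 CPM in dabrafenib. The A375-BIR groups overlapped, and the log2 change was 0.18 ± 0.40 (SE; edgeR adjusted p = 0.901, 3 against 3). Its approximate 95% interval of -0.60 to 0.96, on 41 and 34 counts, leaves room for a change in either direction. Against A375 it was at least 7.88-fold higher in DMSO and at least 6.27-fold higher in dabrafenib. In A375 dabrafenib replicate 3 alone, 0 counts allow up to 15.1 CPM of the unscaled total, within the A375-BIR range.

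**Figure D1:**
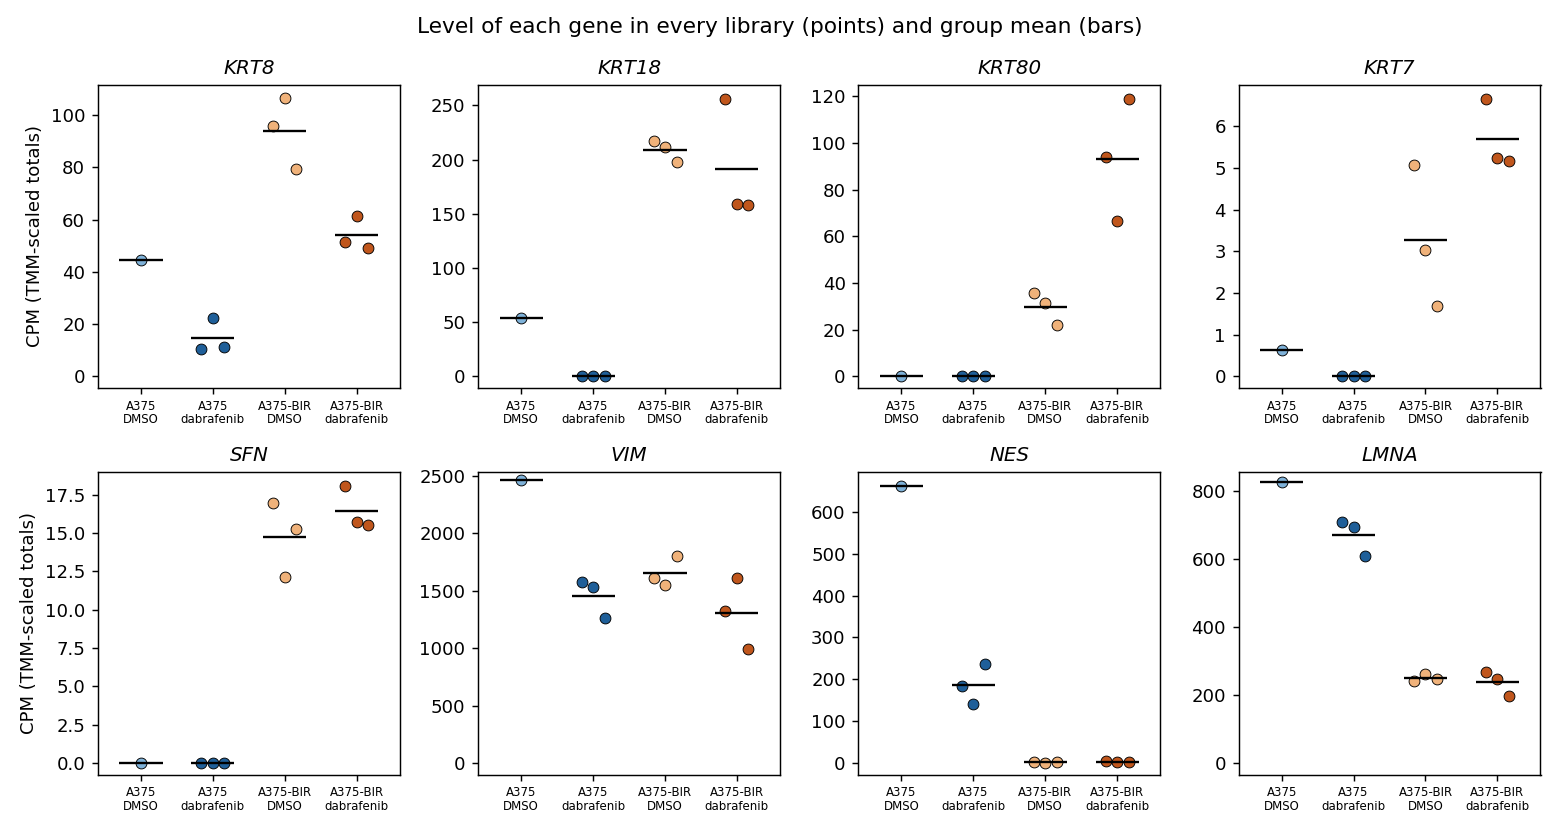
CPM of 8 of the 9 genes (y axis, linear, one scale per gene) in each library (points) of the 4 groups, with bars at the group mean. KRT18 lies at 0 in A375 dabrafenib, KRT80 and SFN at 0 in all A375 libraries, and NES at 1.01 to 3.81 CPM in A375-BIR; KRT19 had no counts and is not drawn.

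Nestin, the progenitor-type filament protein, was high in A375 and close to 0 in A375-BIR. NES stood at 663 CPM in A375 DMSO (1056 counts) and at 184, 141 and 237 CPM in A375 dabrafenib. In A375-BIR it had 3, 1 and 1 counts in DMSO and 4, 1 and 1 in dabrafenib, 1.01 to 3.81 CPM. All A375 libraries were far above all A375-BIR libraries, the A375 mean being 379-fold higher in DMSO and 68.9-fold higher in dabrafenib. These folds rest on 5 and 6 counts in A375-BIR.

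NES fell in A375 with dabrafenib, by 1.88 ± 0.22 on the log2 scale (SE, 3 against 1), given without a test as for KRT18. Over the alternatives its log2 change ran from -2.02 to -1.62. In A375-BIR its log2 change of 0.67 ± 0.78 did not pass (edgeR adjusted p = 0.778, 3 against 3). The difference between the responses was 2.56 ± 0.87 (SE) on the log2 scale, a value that rests on 5 and 6 counts in the A375-BIR groups.

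Vimentin, the main mesenchymal filament protein, was the most counted of the 9 genes in every library. VIM stood at 2462 CPM in A375 DMSO and at 1573, 1531 and 1258 CPM in A375 dabrafenib. It stood at 1613, 1551 and 1798 CPM in A375-BIR DMSO and at 1320, 1611 and 994 CPM in A375-BIR dabrafenib. A375 DMSO was the highest library and the other 3 groups overlapped. VIM fell in A375 with dabrafenib by 0.75 ± 0.25 on the log2 scale (SE, 3 against 1), given without a test as for KRT18. The fall was smaller with raw library totals (-0.49), with genes limited to those averaging 50 counts or more (-0.62), and without A375 dabrafenib replicate 3 (-0.66). In A375-BIR the change of -0.33 ± 0.19 did not pass (edgeR adjusted p = 0.427), and the difference between responses was 0.42 ± 0.32. VIM-AS1 overlaps the gene on the other strand.

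LMNA, which encodes the nuclear lamins A and C, was lower in A375-BIR in both treatments. It stood at 826 CPM in A375 DMSO and at 709, 696 and 609 CPM in A375 dabrafenib. In A375-BIR it stood at 241, 262 and 249 CPM in DMSO and at 267, 248 and 197 CPM in dabrafenib. All A375 libraries were above all A375-BIR libraries, with means 3.30-fold higher in DMSO and 2.83-fold higher in dabrafenib. Its drug response in A375 was -0.29 ± 0.22 (SE, 3 against 1), given without a test as for KRT18. In A375-BIR it was -0.06 ± 0.17 and did not pass (edgeR adjusted p = 0.924, 3 against 3). The difference between the responses was 0.23 ± 0.28.

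Over the 7 tested genes, 4 (KRT8, KRT18, KRT80 and SFN) had every A375-BIR library above every A375 library, where 14.8% of all genes did, 2 (NES and LMNA) had every A375-BIR library below, where 13.1% did, and VIM overlapped. The members were chosen on this contrast, so nothing is read from those shares. In A375, KRT18, KRT8, NES and VIM were lower with dabrafenib, given without a test. Over all genes 20.7% were called lower and 17.9% higher. With raw library totals the split over all genes moved from 1833 higher and 2115 lower to 2565 higher and 1489 lower, and the median change of all genes from 0 to 0.26. Members' changes in A375 stand against that shift.

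**Figure D2:**
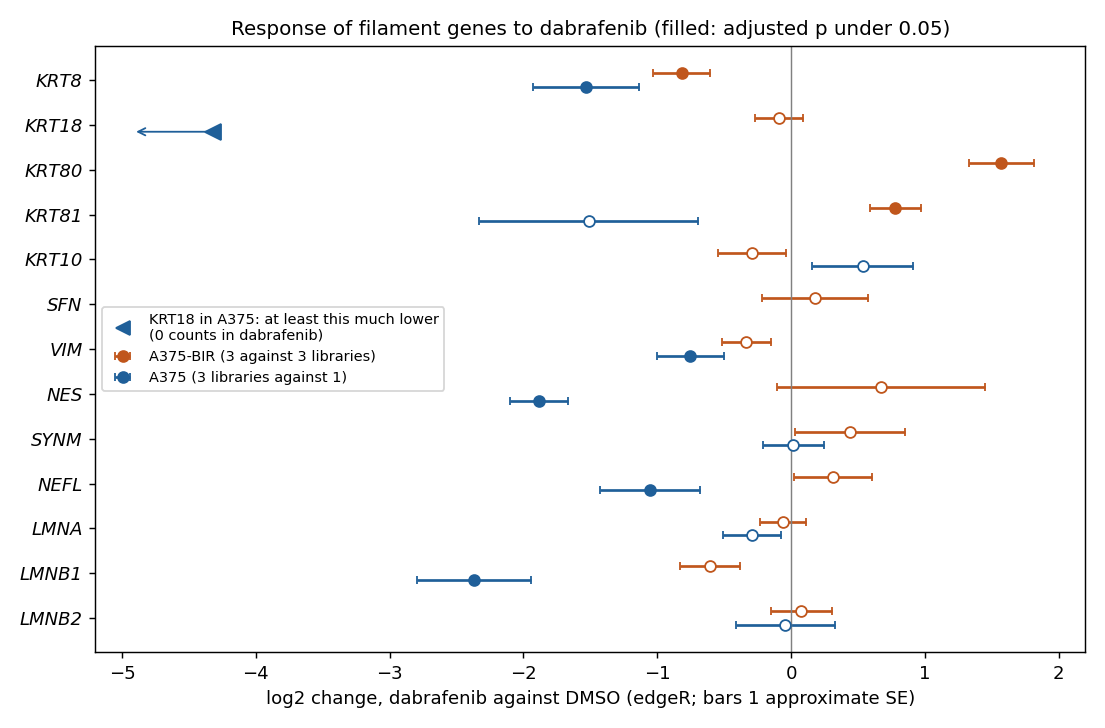
Log2 change with dabrafenib (x axis, edgeR, bars 1 approximate SE) of tested filament genes and SFN in A375-BIR (orange) and A375 (blue), filled where the adjusted p passed 0.05. In A375, KRT8, KRT18, VIM, NES and LMNA are read as descriptions, whatever their fill. The KRT18 triangle marks the smallest fall that 0 counts allow, and KRT80 and SFN have no A375 point because they had no counts there.

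The rest of the keratin family was read from a list of all other keratin genes. Of 54 keratin genes, 26 type II and 28 type I, 36 had no counts and 9 had at least 10 counts over the 10 libraries. KRT81, a type II hair keratin next to KRT86 on chromosome 12, was the most counted of them and was tested. KRT81 stood at 443, 416 and 457 CPM in A375-BIR DMSO and at 994, 516 and 735 CPM in A375-BIR dabrafenib, against 10.7 CPM in A375 DMSO and 0, 4.46 and 11.3 CPM in A375 dabrafenib. It rose in A375-BIR by 0.78 ± 0.19 on the log2 scale (SE; edgeR adjusted p = 0.0183, 3 against 3), the same direction as KRT80, and that call was lost in 5 of 18 alternatives. These were the fit of only the groups compared and those without A375-BIR DMSO replicate 1, 2 or 3 or A375-BIR dabrafenib replicate 1, the last giving 0.50. Every A375-BIR library was above every A375 library, and the A375 side rests on 17 counts in DMSO and 4 in dabrafenib, so no test between the lines is given. KRT81 and its close paralogs share sequence and overlap KRT86, so counts could have been split between them.

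KRT10, a type I keratin of differentiated epidermis, was the other keratin tested outside the members. It stood at 25.9 to 69.4 CPM in the 10 libraries with no drug call in either line, at 0.53 ± 0.38 in A375 (edgeR adjusted p = 0.273) and -0.30 ± 0.25 in A375-BIR (edgeR adjusted p = 0.668). KRT5 and KRT1 had no counts and KRT14 had 2.

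Within each library the 26 type II genes together had 2.09 to 2.15 counts per type I count in A375-BIR DMSO and 2.89 to 4.94 in A375-BIR dabrafenib. A375 DMSO gave 0.723 and A375 dabrafenib 0.208 to 0.833, where 5 to 13 type II counts were read. KRT81 made up 74.2 to 85.7% of type II counts in A375-BIR. In that line the type II counts, as read, therefore came mostly from a hair-type keratin, and not from KRT8 or KRT80. KRT8 and KRT18 have 50 and 67 annotated processed copies, and reads with several hits were left out. Both genes may thus be undercounted in these shares and ratios, which was not tested.

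**Figure D3:**
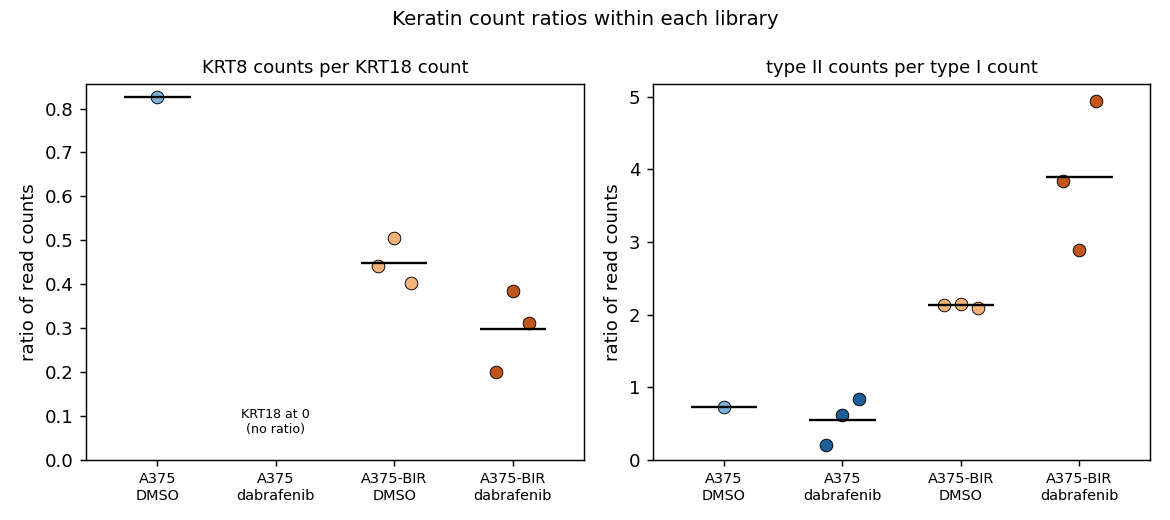
Counts of KRT8 per KRT18 count (left) and of all type II per all type I keratins (right) in each library (points), with group means as bars. The left ratio is lower in A375-BIR dabrafenib than in A375-BIR DMSO in every library, the right one higher, and A375 dabrafenib has no left ratio because KRT18 was at 0.

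Read as shares of 66 cytoplasmic filament genes, keratins took 31.4 to 34.3% of filament counts in A375-BIR DMSO and 34.7 to 51.5% in A375-BIR dabrafenib, against 4.16% in A375 DMSO and 2.9 to 3.86% in A375 dabrafenib. VIM took 66.4 to 78.0% in the A375 libraries and 45.6 to 67.3% in the A375-BIR libraries. NES took 18.6% in A375 DMSO and 7.16 to 12.5% in A375 dabrafenib, and at most 0.134% in A375-BIR. Synemin (SYNM), a filament protein that joins vimentin, took 5.97 to 13.4% in A375 and at most 0.594% in A375-BIR. SYNM stood at 192 to 254 CPM in the A375 libraries and at 5.93 to 12.9 CPM, from 5 to 13 counts, in the A375-BIR libraries.

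**Figure D4:**
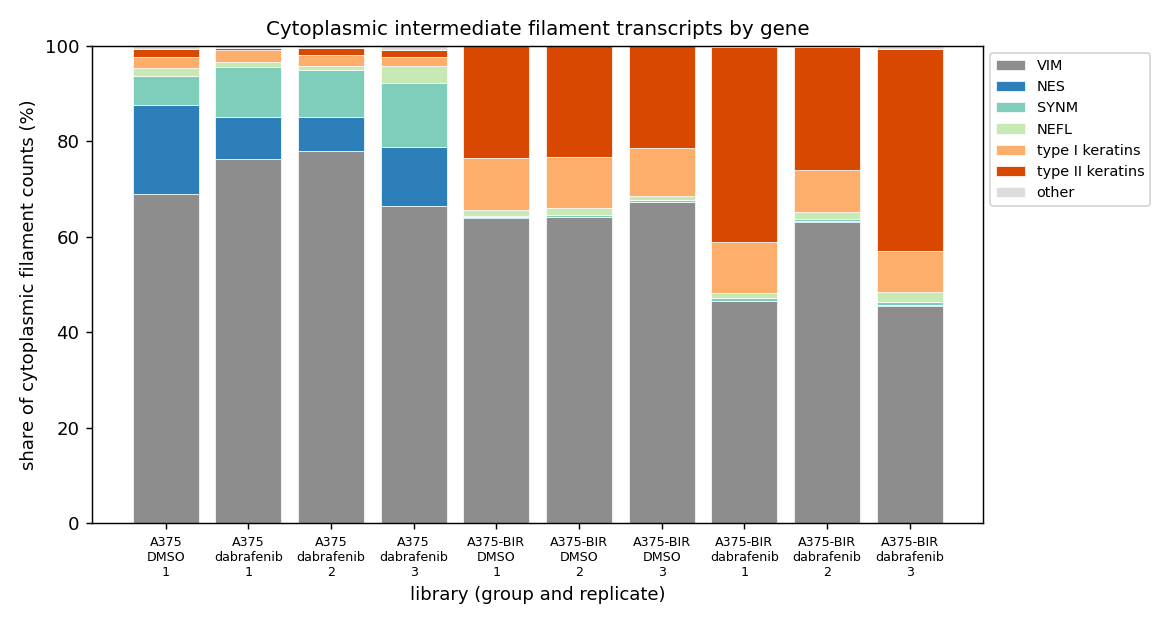
Share of cytoplasmic intermediate filament counts (y axis, percent) taken by each gene or keratin type in each library (x axis, group and replicate). Keratins take at least 31.4% in the A375-BIR libraries and at most 4.16% in the A375 libraries, where NES and SYNM take more.

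Among the other filament genes, 4 were tested besides the keratins. LMNB1, a B-type lamin found at higher level in dividing cells, fell in A375 by 2.37 ± 0.43 on the log2 scale (SE, 3 against 1). That fall rests on 5, 4 and 1 counts in the A375 dabrafenib libraries, against 75 in A375 DMSO. In A375-BIR, LMNB1 gave -0.60 ± 0.22 (edgeR adjusted p = 0.163). NEFL, the neurofilament light chain, gave -1.05 ± 0.37 in A375 (3 against 1), and the groups overlapped. It stood at 59.65 CPM in A375 DMSO and at 22.7, 17.9 and 67.7 CPM (11, 8 and 12 counts) in A375 dabrafenib. The edgeR call was lost with raw library totals, with DESeq2 and without A375 dabrafenib replicate 1 or 2 (-0.83 and -0.71). In A375-BIR, NEFL gave 0.32 ± 0.29 (edgeR adjusted p = 0.693). LMNB2 and SYNM passed in neither line. LMNA made up 91.6 to 95.4% of lamin counts in A375 libraries, and 67.3 to 72.9% in A375-BIR libraries.

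Of 18 tested genes of the nuclear envelope and of lamin processing, edgeR called 0 in the A375-BIR response, where 1.36% of all genes were called higher and 1.1% lower, with 1 at an unadjusted p under 0.05 and 0 called by DESeq2. In A375, edgeR called 4 higher and 4 lower, where 17.9% and 20.7% of all genes were called, and DESeq2 called 3 of the 18. The median change was -0.07 against 0 over all genes. BANF1, which bridges DNA to the envelope, fell by 2.40 ± 0.31 on the log2 scale, EMD (emerin) by 1.45 ± 0.30 and SUN2, a linker of lamins to the cytoskeleton, by 1.77 ± 0.34 (edgeR adjusted p = 1.32e-07, 0.000227 and 8.75e-05). Between the lines in dabrafenib (3 against 3), edgeR called 5 of the 18 higher and 3 lower in A375-BIR. LBR, the lamin B receptor, was higher by 1.47 ± 0.25 (edgeR adjusted p = 1.03e-05), opposite to LMNA. NARF at -2.16 ± 0.35 and SYNE3 at -1.13 ± 0.27 went the same way as LMNA. In DMSO the A375 side is 1 library with another stamp, so only sizes are given. There LBR gave 1.98 ± 0.28 and SUN1 1.27 ± 0.30, against -1.44 ± 0.28 for SUN2 and -0.94 ± 0.25 for EMD. Over all genes 25.1% were called higher and 26.7% lower in DMSO, and 22.6% higher and 20.2% lower in dabrafenib.

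Of 10 tested plakin and desmosome genes, which anchor filaments to junctions, edgeR called 0 in the A375-BIR response (1.36% of all genes were called higher and 1.1% lower), with 2 at an unadjusted p under 0.05 and 0 by DESeq2. In A375, 1 rose and 4 fell, where 17.9% of all genes were called higher and 20.7% lower, and DESeq2 also called 5. The median change was -0.68 against 0 over all genes. Desmoplakin (DSP), which ties keratins to desmosomes, fell by 1.93 ± 0.24 on the log2 scale and plectin (PLEC), which crosslinks filaments, by 1.25 ± 0.23, while dystonin (DST) rose by 1.39 ± 0.28 (edgeR adjusted p = 7.27e-08, 6.25e-05 and 0.000139). DSP was lower in A375-BIR than in A375 in DMSO, by 1.64 ± 0.21 (edgeR adjusted p = 4.91e-08), and its difference between the responses was 2.17 ± 0.31 (edgeR adjusted p = 3.88e-06), where 12.7% of all genes were called in that direction and 9.87% in the other. Both values rest on the single A375 DMSO library. Between the lines in dabrafenib, DSP gave 0.52 ± 0.22, which did not pass (edgeR adjusted p = 0.0562, 3 against 3). Of the 10 genes, edgeR called 6 higher and 1 lower in A375-BIR in dabrafenib, where 22.6% and 20.2% of all genes were called. The median line difference of the 10 was 0.87 in dabrafenib and 0.16 in DMSO, against 0.043 and 0.005 over all genes. PKP2, PKP3 and DSC3 had 1, 0 and 0 counts in A375 dabrafenib and 0, 0 and 1 in A375 DMSO. These genes could be tested only through their counts in A375-BIR, which all but fixed their direction. Nothing is therefore read from the calls or medians between the lines.

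Of the 6 other 14-3-3 genes, edgeR called 0 in the A375-BIR response (1.36% of all genes were called higher and 1.1% lower), with 0 at an unadjusted p under 0.05 and 0 by DESeq2. In A375, where 17.9% of all genes were called higher and 20.7% lower, 2 rose, YWHAQ by 1.15 ± 0.25 and YWHAH by 1.00 ± 0.27, and 2 fell, YWHAB and YWHAE, by 0.92 ± 0.23 and 0.65 ± 0.22 (edgeR adjusted p = 0.000449, 0.00369, 0.00139 and 0.0192). The YWHAE call was lost with raw library totals (-0.39), with the replicate block (-0.60) and without A375 dabrafenib replicate 2 (-0.60). All 6 had counts in both lines, unlike SFN.

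Genes whose profile over the 10 libraries was most like a member's were ranked among 4236 genes by Pearson correlation of log2 CPM. The ranking is a description because the libraries fall into 2 lines and differ in depth, and A375 DMSO differs in stamp. For KRT8 these were ANLN, STMN1 and HMMR (0.979 to 0.980), which act in cell division or microtubule control. For KRT18 they were NIBAN2, B4GALT5 and NUCKS1 (0.987 to 0.989), and for VIM they were TUBB, COX7A2 and RPL37A (0.951 to 0.960). For NES they were MFSD12, PIEZO2 and TBC1D16 (0.988 to 0.989), and for LMNA they were MFSD12, ZFP91 and PIEZO2 (0.987 to 0.995). NES and LMNA correlated with each other at 0.976 and KRT8 with KRT18 at 0.929.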

How the data were processed

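The deposited files hold raw read counts per gene, 1 file per library, made by the authors with build hg38 per the submitters' processing notes. Aligner, counter, annotation and strand setting: not given in the sources used here. Libraries were QuantSeq 3′ tags read as 100-base single ends on a NovaSeq, per the labels' protocols. Lines that name no gene (no feature, ambiguous, multiple hits) were left out. In the 10 libraries used, 20.1 to 31.0% of reads fell in no gene and 40.0 to 52.5% had several hits, so genes with near-identical copies may be undercounted. GENCODE 29 annotates 50, 67 and 5 processed copies of KRT8, KRT18 and KRT19. Of these, 0 were among the listed identifiers, so they were not analysed here. Gene counts per library ran from 198690 to 1999840, and limits for 0 counts cover counting error only. GENCODE 29 gave positions, and a separate list of gene names gave symbols to 32807 of 33694 identifiers. Groups follow the labels, which call the replicates biological.

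Counts were tested with edgeR 4.0.16 in R 4.3.3 (quasi-likelihood, TMM, default low-count filter, robust), with 1 coefficient per group over 10 libraries, 10236 genes and 6 residual degrees of freedom, and Benjamini-Hochberg adjustment at 0.05. SEs are approximate (change over the root of F) and do not reproduce every p. For KRT18 in A375-BIR, at -0.09 ± 0.18, the unadjusted edgeR p of 0.917 is larger than the SE implies. Named list genes are up to 4 with the smallest p per list. Alternatives covered scaling, DESeq2 1.42.0, filters, samples in the fit, a replicate block and each library left out. The members and lists were chosen with earlier results of these data known. Sequences are from RefSeq.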

Additional observations from a re-analysis of the deposited data

Results flagged for a closer look

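The fitted response to dabrafenib in A375-BIR minus that in A375 (edgeR) stood out for 5 filament genes, and every value uses the single A375 DMSO library. KRT18 gave 8.25 on the log2 scale and NES gave 2.56, both given as descriptions because the members were chosen on the difference between the lines. The KRT18 value depends on the prior count given to 0 counts in A375 dabrafenib, and the NES value rests on 5 counts in A375-BIR DMSO. KRT81 gave 2.29 on 4 counts in A375 dabrafenib, and its call held in 5 of 16 alternatives. For LMNB1 the difference was 1.77, on 5, 4 and 1 counts in A375 dabrafenib, and its edgeR call was lost with DESeq2. For NEFL it was 1.37 (edgeR adjusted p = 0.0348), held in 9 of 15 alternatives and lost with raw library totals, with DESeq2, and without A375-BIR DMSO replicate 1 or 3 or A375 dabrafenib replicate 1 or 2, at 1.03 to 1.41.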

How the results depend on the processing

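Over the alternatives run, 370 of 397 values of the members' changes kept direction and side of the threshold or moved by less than the spread. Another 13 lost their call: KRT8 in A375-BIR, and VIM in A375 and the NES difference between responses, both given without a test. Beyond these, 9 untested line differences moved by more than the spread and 5 values changed sign. The number of genes called in the A375-BIR response, 252, became 94 with DESeq2, 137 when genes had to average 50 counts or more and 125 with only the groups compared, and ran from 106 to 558 with 1 library left out. The A375 response, 3948, became 2485 with DESeq2 and 1669 with the count minimum of 50 (3091 to 4523 with 1 library left out), and the difference between responses, 2313, became 1128 and 1133 (1644 to 3030). The line differences, 4374 in dabrafenib and 5298 in DMSO, became 1764 and 1895 with that minimum, which tests 3336 genes (3423 to 4417 and 4546 to 5909 with 1 library left out). Raw library totals moved the median change of all genes to 0.26 in the A375 response, 0.16 and 0.41 in the line differences in dabrafenib and DMSO, and -0.24 in the difference between responses. They turned 2567 higher and 2731 lower in DMSO into 3842 and 1718, and 1303 higher and 1010 lower in the difference into 810 and 1549. The sign changed with raw library totals for the LMNA difference between responses (-0.046), for LMNB2 in the A375 response (0.23) and in the difference (-0.16), and for YWHAB between lines in DMSO (0.22). SYNM in the A375 response gave -0.068 with no low-count filter and -0.053 with the replicate block. With 1 library left out, the A375-BIR response ran from -0.40 to 0.051 for KRT18, -0.16 to 0.0495 for LMNA, -0.033 to 0.25 for MACF1 and -0.26 to 1.31 for S100B, the A375 response from -0.061 to 0.12 for SYNM and -0.10 to 0.078 for LMNB2, the difference from -0.0036 to 0.23 for LMNB2, and the line difference in dabrafenib from -0.33 to 0.0003 for VIM and -0.21 to 0.26 for KRT10. For values other than those of the count minimum, the cause was not tested. Replicate numbers did not pair the libraries: same-numbered libraries correlated at -0.334 to 0.272 over 9 pairs, and 4 of 9 libraries were closest to their own number. The replicate block gave 239, 3296, 4292, 4579 and 1750 calls, in the order A375-BIR response, A375 response, lines in dabrafenib, lines in DMSO and difference. The ratio with processed copies added was not run. Depth limits KRT7, KRT19, KRT80 and SFN in A375, where 0 counts allow up to 2.70 CPM over a group and up to 15.1 CPM in A375 dabrafenib replicate 3 alone.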
